A study of Homo sapiens with 18 samples.

Results

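The genes of the EGF family ligands and of the ERBB receptors were examined in A549 cells, an established line from a human lung adenocarcinoma. They are the ligands HBEGF, AREG, EREG, TGFA, BTC and NRG1 and the receptors EGFR, ERBB2 and ERBB3. Every probe that the scanner files name with one of these symbols was taken, whatever its signal, which gave 18 probes for 9 genes among the 41000 probes of the array. Of these, 15 probes for 8 genes passed the filter on missing values, and ERBB3 was the gene left without a usable probe.

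Cells were incubated for 2 h in serum-free medium with Ludox silica nanoparticles (NPs) at 0.02 mg/mL, and RNA was extracted after a recovery in complete medium with 10% serum. The SM30 NPs, 9 nm in diameter, were followed by a recovery of 3 h, and the AS30 NPs, 18 nm in diameter, by a recovery of 3 h or 22 h. Each of the 3 treated groups had a control group that went through the same steps without NPs, also the serum-free step and the return to serum, and each of the 6 groups had 3 arrays, lettered A, B and C. The methods call these biological replicates, and p-values measure the spread between these arrays only.

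EGF family ligands are made as membrane proteins and act on the same or neighbouring cells once their outer part is cut off, mostly by metalloproteinases of the ADAM family. The released ligand brings ERBB receptors together in pairs, and the phosphorylated receptors pass the signal to the RAS and ERK kinases, to PI3 kinase and to STAT factors. In airway epithelium this system is known for its part in repair, mucus production and growth, and several of the ligands are themselves transcribed in response to ERK signalling.

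Among the member ligands, HBEGF, EREG and AREG were the most correlated with each other over the 18 arrays (Pearson r from 0.823 to 0.957). They did not move together in every comparison. After AS30 at 3 h HBEGF differed from its controls by -0.64 on the log2 scale, EREG by 0.10 and AREG by 0.06. The receptor EGFR also ran with AREG and EREG (Pearson r of 0.854 and 0.796). EREG and AREG are neighbours on chromosome 4, where the order of protein-coding genes is EPGN, EREG, AREG, BTC, and HBEGF lies on chromosome 5. The 250 bases upstream of the annotated start are shown for HBEGF, EREG and AREG because of their correlation, and they come from RefSeq on build GRCh38.p14. EREG is at chr4:74364895-74365144 and AREG at chr4:74444886-74445135, both on the plus strand, and HBEGF is at chr5:140346604-140346853 on the minus strand. Each is written 5′ to 3′ in the direction of transcription, and capitals mark a motif found by the search.
EREG: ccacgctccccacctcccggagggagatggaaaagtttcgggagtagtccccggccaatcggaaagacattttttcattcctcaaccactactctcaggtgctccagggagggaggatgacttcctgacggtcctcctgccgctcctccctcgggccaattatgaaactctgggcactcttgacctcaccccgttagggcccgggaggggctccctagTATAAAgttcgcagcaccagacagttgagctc
AREG: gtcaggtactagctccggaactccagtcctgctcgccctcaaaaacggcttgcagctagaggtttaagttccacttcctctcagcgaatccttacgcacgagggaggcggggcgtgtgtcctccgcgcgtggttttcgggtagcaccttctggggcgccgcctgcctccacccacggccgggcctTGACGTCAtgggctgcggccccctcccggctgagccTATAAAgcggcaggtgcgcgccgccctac
HBEGF: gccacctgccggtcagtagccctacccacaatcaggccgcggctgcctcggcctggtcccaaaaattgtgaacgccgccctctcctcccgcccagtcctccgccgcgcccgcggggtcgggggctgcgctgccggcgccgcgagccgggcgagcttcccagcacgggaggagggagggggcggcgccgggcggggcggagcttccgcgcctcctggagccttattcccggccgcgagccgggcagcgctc

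The search looked on both strands for a TATA box (TATAAA), a cAMP response element (TGACGTCA), an AP-1 site (TGANTCA), a CArG box and an NF-kB site. EREG has TATAAA 32 bases and AREG 29 bases upstream of the start, and of all 35116 promoter windows of this length 10.7% hold those letters. AREG also has TGACGTCA 65 bases upstream, which 1.65% of windows hold. None of the 5 motifs was found in the HBEGF window, which says only that those letters are not in it. The AP-1 letters occur in 6.57% of windows, the CArG box in 1.16% and the NF-kB site in 5.21%. Of the members not shown, EGFR has AP-1 letters 232 and 136 bases and TATAAA 146 and 36 bases upstream in 1 of its 2 entries. ERBB2 has AP-1 letters 222 bases upstream, and TGFA has NF-kB letters 219 bases upstream in 1 of its 2 entries. The BTC window holds none of the 5 motifs, ERBB3 had no entry, and NRG1 was not looked up. A match describes the sequence and does not show that a factor binds there.

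Signals are log2 of the background-corrected spot intensity after quantile normalization of the 18 arrays, so 1 unit is a doubling. Levels of different probes are not compared, because each probe has its own response. Between 51.9% and 72.4% of the spots that are not controls were well above background on an array, and none was saturated. The epithelial markers KRT7, KRT8, KRT18, KRT19, EPCAM and CDH1 were well above background on 18 of 18 arrays. Among defining markers of other cells, PTPRC, PECAM1, COL1A2, COL3A1, PDGFRB and SFTPA2 were well above background on 0 arrays, CDH5 and SFTPB on 1 and VWF on 6, whereas CD3E, CD14, COL1A1 and SFTPC were on all 18. In RNA from a whole culture, fewer cells of a kind and less RNA per cell cannot be told apart.

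**Figure D1:**
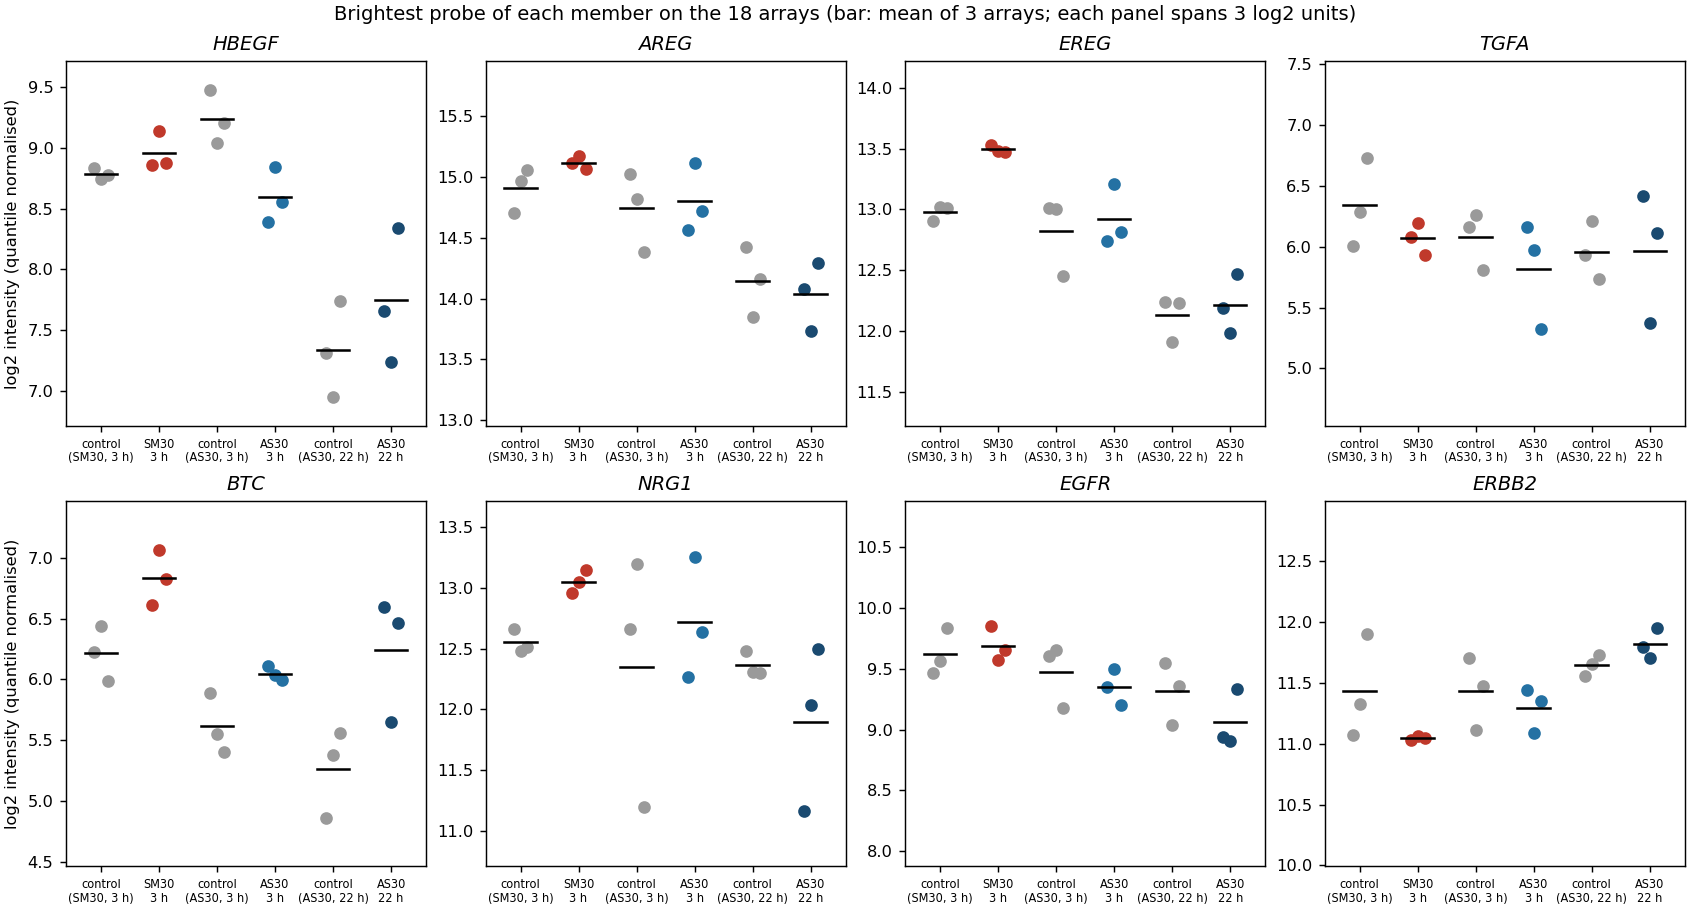
Log2 signal of the brightest probe of each of the 8 measured member genes (y axis, 3 log2 units in every panel) in the 6 groups (x axis). Each point is an array and each bar the mean of 3 arrays. HBEGF is lowest in both groups at 22 h, and EREG and AREG are lower there than at 3 h.

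HBEGF encodes heparin-binding EGF-like growth factor, a ligand of EGFR and ERBB4. Its brighter probe (A_24_P140608, chromosome 5, 139693236 to 139693295 on hg18) read 8.84, 8.75 and 8.77 in the SM30 controls (replicates A, B and C) and 8.86, 9.14 and 8.88 after SM30. It read 9.48, 9.04 and 9.20 in the AS30 controls at 3 h and 8.39, 8.85 and 8.56 after AS30. At 22 h it read 7.32, 6.95 and 7.74 in the controls and 7.66, 7.24 and 8.34 after AS30. The arrays at 3 h therefore all lay above those at 22 h, and AS30 arrays at 3 h all lay below their controls. A second HBEGF probe (A_23_P213944) gave the same picture, with a Pearson r of 0.977 between both probes over the 18 arrays.

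AREG encodes amphiregulin, a ligand of EGFR. Its single probe (A_23_P259071, chromosome 4, 75539382 to 75539441 on hg18) read 14.71, 14.96 and 15.06 in the SM30 controls and 15.11, 15.17 and 15.06 after SM30. It read 15.03, 14.82 and 14.38 in the AS30 controls at 3 h and 14.56, 15.12 and 14.72 after AS30, so that these groups overlap. At 22 h it read 14.43, 13.85 and 14.16 in the controls and 14.08, 13.73 and 14.29 after AS30. Of the AREG arrays at 3 h, only control array C came down to the range of the 22 h arrays.

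EREG encodes epiregulin, a ligand of EGFR and ERBB4. Its brighter probe (A_23_P41344, chromosome 4, 75472873 to 75472932) read 12.91, 13.02 and 13.01 in the SM30 controls and 13.53, 13.48 and 13.47 after SM30. It read 13.01, 13.01 and 12.46 in the AS30 controls at 3 h, 12.74, 13.21 and 12.82 after AS30, and at 22 h 12.24, 11.91 and 12.23 in the controls and 12.19, 11.98 and 12.47 after AS30. The 3 SM30 arrays were the highest of the 18. A second EREG probe (A_24_P217520) spans 1567 bases of the genome (75465717 to 75467283) and so crosses an intron. It read 9.22, 8.82 and 8.76 in the SM30 controls and 9.78, 9.94 and 10.00 after SM30, again with the SM30 arrays highest. In the AS30 set it read 9.17, 9.02 and 8.47 in the 3 h controls, 9.04, 8.92 and 8.69 after AS30 at 3 h, 7.64, 8.05 and 8.51 in the 22 h controls and 9.07, 8.18 and 8.78 after AS30 at 22 h. Both EREG probes had an r of 0.831 over the 18 arrays.

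BTC encodes betacellulin, a ligand of EGFR and ERBB4, and its brighter probe (A_23_P135722, chromosome 4, 75894862 to 75894921) was close to background. It read 6.23, 6.43 and 5.99 in the SM30 controls and 6.61, 7.07 and 6.82 after SM30. It read 5.88, 5.55 and 5.40 in the AS30 controls at 3 h and 6.11, 6.04 and 6.0 after AS30. At 22 h it read 4.86, 5.38 and 5.56 in the controls, where no array was well above background, and 6.60, 5.65 and 6.47 after AS30, where A and C were. Treated arrays lay above their controls in all 3 comparisons, at 22 h only just, with treated array B at 5.65 and control array C at 5.56. The other BTC probe (A_32_P865613) was dimmer still and was not detected on any control array at 22 h.

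TGFA encodes transforming growth factor alpha, a ligand of EGFR, and NRG1 encodes neuregulin 1, a ligand of ERBB3 and ERBB4. The TGFA probe (A_23_P377291) stayed between 5.32 and 6.73 on the 18 arrays, and its groups overlapped in every comparison. NRG1 has 3 bright probes, of which the brightest (A_23_P360777) read 12.66, 12.48 and 12.52 in the SM30 controls and 12.96, 13.05 and 13.15 after SM30. In the AS30 set that probe spread widely within groups, with 12.66, 13.19 and 11.19 in the 3 h controls, 12.27, 13.26 and 12.63 after AS30 at 3 h, 12.48, 12.31 and 12.30 in the 22 h controls and 11.17, 12.04 and 12.50 after AS30 at 22 h. The other bright probes (A_23_P315815 and A_23_P136493) stayed within 11.95 to 12.83 and 11.24 to 12.09 and had an r of 0.936 with each other over 17 arrays, against 0.516 over 18 arrays and 0.453 over 17 with the brightest. The NRG1 probes therefore did not all run together, and another one (A_23_P407497) was dim and ran with none of the others. Each of these NRG1 probes is annotated to a different transcript record, and whether they measure the same transcripts was not tested.

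**Figure D2:**
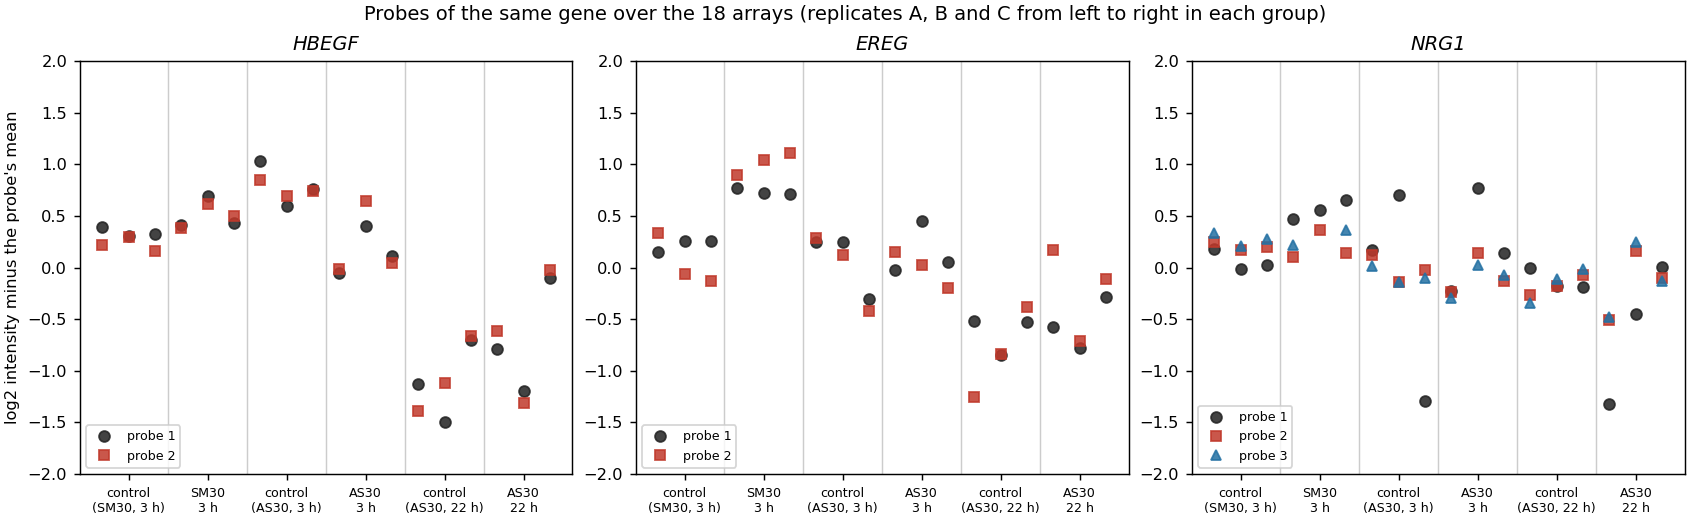
Log2 signal of the probes of HBEGF, EREG and NRG1 on each of the 18 arrays (x axis), each probe centred on its own mean over the arrays (y axis). The HBEGF probes stay close to each other, the EREG probes part most on both A arrays at 22 h, and the brightest NRG1 probe departs from the other bright probes on single arrays.

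EGFR encodes the EGF receptor itself, and ERBB2 the receptor without a known ligand that pairs with the others. EGFR (A_23_P215790, chromosome 7, 55242335 to 55242394, printed 10 times on each array) read 9.47, 9.56 and 9.83 in the SM30 controls and 9.85, 9.57 and 9.65 after SM30. It read 9.60, 9.65 and 9.17 in the AS30 controls at 3 h, 9.35, 9.49 and 9.20 after AS30, and at 22 h 9.55, 9.04 and 9.36 in the controls and 8.94, 8.91 and 9.33 after AS30, with overlap in every comparison. The 10 spots of an array had a median SD of 0.0714, while arrays of a group had a pooled SD of 0.212, so differences between arrays exceeded the error of the spots. The brighter ERBB2 probe (A_23_P89249, chromosome 17, 35138355 to 35138414, also printed 10 times) read 11.07, 11.33 and 11.90 in the SM30 controls and 11.03, 11.06 and 11.04 after SM30. It read 11.71, 11.12 and 11.47 in the AS30 controls at 3 h, 11.44, 11.09 and 11.35 after AS30, and at 22 h 11.56, 11.66 and 11.73 in the controls and 11.79, 11.70 and 11.95 after AS30. The 3 SM30 arrays were the lowest of the 18 for ERBB2, just under the lowest SM30 control. Here the median SD of the spots was 0.0436 and the pooled SD of the arrays 0.233.

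ERBB3, the receptor with little kinase activity of its own, had 3 probes, and all were at the edge of detection. The best of them (A_23_P349416) was detected on 12 arrays and well above background on 7, with 4.71, 4.72 and 4.97 in the SM30 controls and 4.41, 4.10 and 3.75 after SM30, all of them below the controls. It was detected on no control array at 22 h, and none of its probes entered the test as reported. With all spots and probes kept, ERBB3 was tested and passed in none of the comparisons.

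At 3 h after SM30, the members that differed most from their controls were EREG and BTC, both higher. By limma with Benjamini-Hochberg adjustment over all probes, 0 of 8 member genes passed an adjusted p of 0.05 on the brighter probe, where 8.78% of all probes tested passed, and 2 genes (EREG and BTC) had an unadjusted p under that value. EREG was 1.43-fold above its controls, a log2 change of 0.51 (SE 0.17, 95% interval 0.14 to 0.88, adjusted p = 0.0827). The second EREG probe rose by 0.97 (SE 0.25, interval 0.43 to 1.52, adjusted p = 0.0292), or 1.96-fold, and it was the only one of the 15 member probes that passed. BTC differed by 0.62 (SE 0.24, interval 0.11 to 1.13, adjusted p = 0.128).

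The remaining members did not pass the test after SM30. ERBB2 was lower by a log2 value of -0.39 (interval -0.79 to 0.02, adjusted p = 0.229), and NRG1 read 0.50 on the brightest probe, 0.00 and 0.02 on the other bright probes and 0.50 on the dim one. HBEGF differed by 0.17 (interval -0.35 to 0.70), AREG by 0.21 (interval -0.23 to 0.64), TGFA by -0.27 and EGFR by 0.07 (interval -0.30 to 0.44). In 6 of 8 genes the SM30 arrays did not overlap their controls, against 43.0% of all probes. The median change over the 8 genes was 0.19, and over all probes -0.05.

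The arrays were processed on slides, and the slide touches this comparison, because the 3 SM30 controls shared a slide with SM30 array A while B and C were on another. Within the shared slide, EREG was 0.55 higher on the brighter probe and 0.85 on the second, and BTC 0.39. With the slide as a fixed block the second EREG probe gave 0.85 and an adjusted p of 0.290, where 1.17% of all probes passed, and with the replicate letter as a block 0.97 and 0.0513. The call on that probe was also lost without control array B or C or any 1 of the SM30 arrays (adjusted p from 0.0603 to 0.113). In those fits 4.30% to 4.93% of all probes passed, in place of 8.78%. The mean of both EREG probes gave 0.74 with an adjusted p of 0.0249.

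At 3 h after AS30, HBEGF was the member farthest from its controls, and it was lower. Its log2 change was -0.64 (SE 0.25, interval -1.17 to -0.12, adjusted p = 0.134) on the brighter probe and -0.53 (SE 0.27, adjusted p = 0.239) on the second. None of the 8 member genes passed the test by limma (0 of 8, and 1 at an unadjusted p under 0.05), where 4.59% of all probes did. BTC differed by 0.44 (interval -0.08 to 0.95, adjusted p = 0.284), and NRG1 by 0.37 with an interval from -0.52 to 1.26. EREG differed by 0.10 (interval -0.27 to 0.47), AREG by 0.06 (interval -0.38 to 0.49), TGFA by -0.26, EGFR by -0.13 and ERBB2 by -0.14. In 2 of 8 genes, HBEGF and BTC, the groups did not overlap, against 23.8% of all probes, and the median change of the members was -0.03. The AS30 arrays and their controls at 3 h lay on different slides, each shared only with 1 of the 22 h controls, and with the slide as a fixed block HBEGF gave -0.28 (adjusted p = 1.00).

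At 22 h after AS30, BTC rose above its controls, which were all near background, and the other members did not pass. This is 1 of 8 genes by limma, where 4.99% of all probes passed. The mean BTC signal was 6.24 after AS30 and 5.27 in the controls, a difference of 0.97 (SE 0.24, interval 0.46 to 1.48, adjusted p = 0.0325). Because no control array was well above background, the change is properly a bound, and it was at least 1.07-fold higher. BTC was also the only 1 of the 8 genes whose groups did not overlap, against 23.9% of all probes. The 22 h control arrays A, B and C had 52.4%, 51.9% and 58.4% of spots well above background. The AS30 arrays had 64.5%, 56.9% and 67.0%. AS30 array B, the dimmest of its group, had the lowest BTC of that group, whereas among the controls B was dimmest and A had the lowest BTC. Any part of array brightness in the BTC difference was not tested.

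The BTC call did not hold under several settings. Deviations of same-letter arrays were only weakly correlated at 22 h (r of 0.110, 0.104 and 0.190). With the letter as a replicate block the adjusted p was 0.0619, so that 0 of 8 genes passed, where 3.58% of all probes did. Within the slide that held the 3 AS30 arrays and control array C the difference was 0.68, and the same value came from the slide as a fixed block (adjusted p = 0.551), where 0.297% of all probes passed. With only the compared groups fitted its adjusted p was 0.244, but there 0% of all probes passed. The call was also lost without control array A (0.77, adjusted p = 0.138) or B (1.03, 0.0727) or AS30 array A (0.79, 0.139) or C (0.86, 0.130). In these fits 1.41%, 1.85%, 1.18% and 1.00% of all probes passed, in place of 4.99%, so calls were lost over the whole array. With normexp background correction the difference shrank to 0.25, with an adjusted p of 0.0393. It was 0.21 (adjusted p = 0.610) when both BTC probes were averaged, but that average mixes unlike sets of probes. The dimmer probe had no value on any 22 h control array or on AS30 array B. Its values of 4.43 and 4.07 lowered the averages of AS30 arrays A and C only. The averaged value is therefore not a like-for-like BTC change.

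The other ligands and the receptors at 22 h gave HBEGF 0.41 on both probes (adjusted p = 0.351 on the brighter), and EREG 0.09 on the brighter probe but 0.61 (SE 0.25, adjusted p = 0.179) on the second. AREG differed by -0.11 (interval -0.54 to 0.33), TGFA by 0.01, NRG1 by -0.46, EGFR by -0.26 (adjusted p = 0.420) and ERBB2 by 0.17. The median change of the members was 0.05 and of all probes -0.01.

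**Figure D3:**
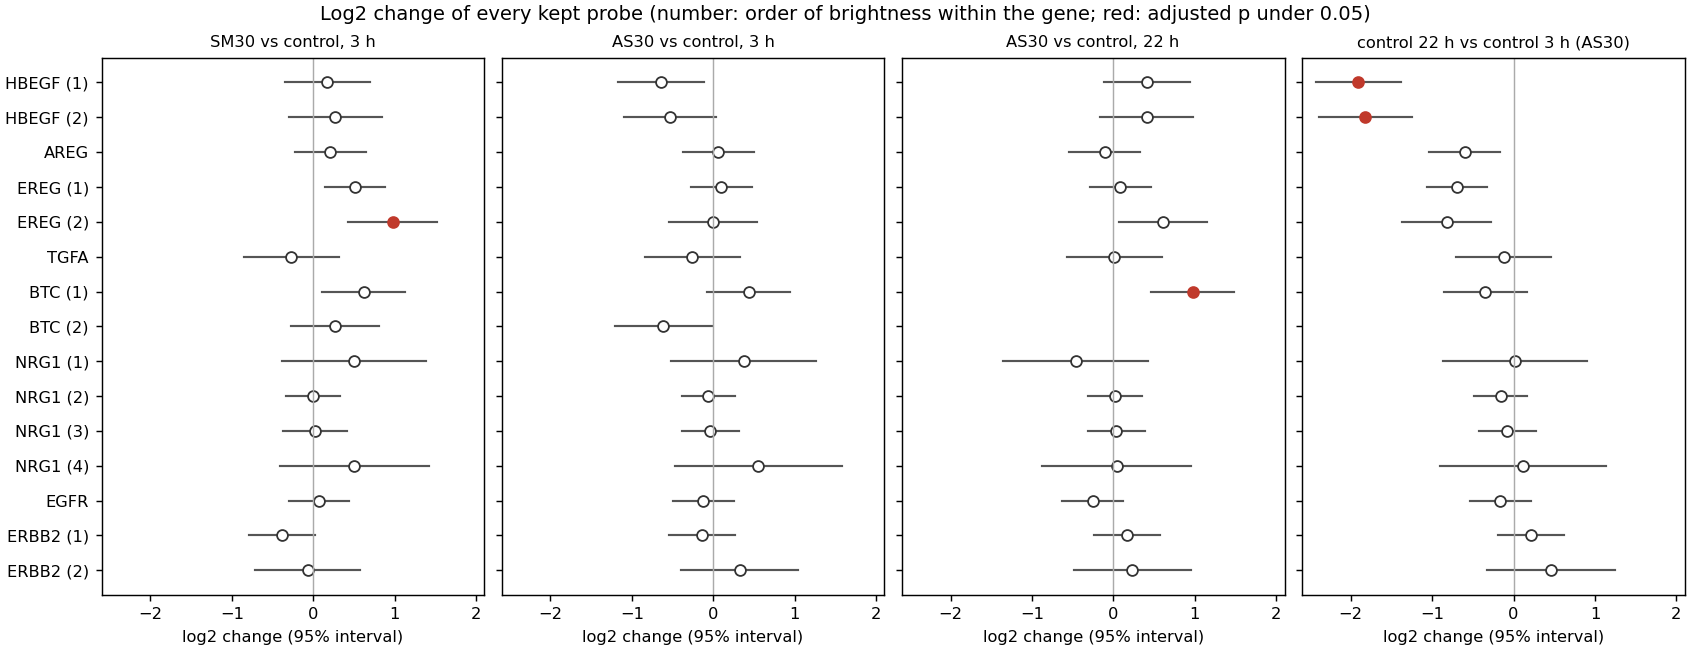
Log2 change and 95% interval of each of the 15 kept member probes (rows) for SM30 at 3 h, AS30 at 3 h, AS30 at 22 h, and the AS30 controls at 22 h against 3 h (panels). Red marks an adjusted p under 0.05, which holds for the second EREG probe after SM30, the brighter BTC probe after AS30 at 22 h and both HBEGF probes between the controls.

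The particles were also compared with each other, as the SM30 change at 3 h minus the AS30 change at 3 h, at the same dose and time. The SM30 and AS30 sets shared no slide, and the AS30 arrays at 3 h lay on a different slide from their controls. With the slide as a fixed block 0 of 8 genes passed, beside 0.244% of all probes. Without the block, 0 of 8 genes passed by limma (1 at an unadjusted p under 0.05), where 0.0489% of all probes did. The difference was 0.81 for HBEGF (interval 0.07 to 1.56, adjusted p = 0.333), made of the small positive value after SM30 and the negative one after AS30. It was 0.42 for EREG on the brighter probe (interval -0.11 to 0.94, adjusted p = 0.489) and 0.98 on the second (interval 0.21 to 1.74, adjusted p = 0.287). For BTC it was 0.18 with an interval from -0.54 to 0.90. The intervals are wide, and a test that was not passed does not show that both particles act alike. The separate controls of both particles also differed on many probes, 26.8% of all, but on 0 of 8 member genes, with BTC nearest at 0.60 (adjusted p = 0.0751) and HBEGF at -0.45 (adjusted p = 0.185).

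Between the recovery times, the AS30 change at 22 h minus that at 3 h passed for 0 of 8 genes (1 at an unadjusted p under 0.05) and for 0.245% of all probes. HBEGF came closest, with 1.06 on the brighter probe (interval 0.31 to 1.80, adjusted p = 0.184) and 0.94 on the second. The corresponding BTC value was 0.54 with an interval from -0.19 to 1.26.

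The largest difference of a member was found between untreated cells. From 3 h to 22 h of recovery the AS30 controls fell by 1.90 in HBEGF on the log2 scale (SE 0.25, interval -2.43 to -1.38, adjusted p = 0.00286 by limma), which left 0.267 of the earlier level. The second HBEGF probe fell by 1.82 (adjusted p = 0.00569). HBEGF was the 1 of 8 genes that passed, where 1.30% of all probes did. The drop was -1.92 within the slide that held the 3 h controls and control array A of 22 h, and with the slide as a fixed block its adjusted p was 0.0220. Leaving out any array kept the call, with values from -2.11 to -1.71, and normexp gave -0.99. With the 2 control groups fitted alone HBEGF had an adjusted p of 0.332, but there 0% of all probes passed.

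EREG and AREG, the neighbours on chromosome 4, leaned the same way in the controls. EREG differed by -0.70 (interval -1.07 to -0.33, adjusted p = 0.0670) and its second probe by -0.82 (adjusted p = 0.136), and AREG by -0.60 (interval -1.03 to -0.16, adjusted p = 0.176). Control array C at 3 h, the dimmest of its group with 52.4% of spots well above background against 61.7% and 61.9%, had the lowest EREG and AREG of that group, and without it EREG (adjusted p = 0.0113) and AREG (adjusted p = 0.0448) passed, as did 5.54% of all probes in place of 1.30%. In HBEGF and EREG, 2 of 8 genes, the groups did not overlap, against 14.0% of all probes. BTC differed by -0.35, TGFA by -0.12, NRG1 by 0.02, EGFR by -0.16 and ERBB2 by 0.22, and the median of the members was -0.25 beside 0.02 for all probes. These cells had been returned to medium with serum, and any part of the serum or of culture time in the fall was not tested. For the slide, only the values given above for HBEGF are reported.

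Over the 18 arrays AREG and EREG had a Pearson r of 0.957, HBEGF and AREG 0.831, and HBEGF and EREG 0.823. EGFR ran with AREG at 0.854 and with EREG at 0.796, whereas ERBB2 ran opposite to EREG at -0.708, and HBEGF and TGFA had 0.215. These values describe arrays that share treatment, time, slide and normalization. Of the probes measured on every array, the genes most like each member were looked up. For HBEGF they were IL1RAP at 0.919 and CD59, for EREG SNX9 at 0.967, LRRC8C and BTG3, and for AREG, beside EREG itself, an unnamed transcript at 0.971 and DCTN2. BTC was nearest to SLFN5 at 0.955 and BNIP3L, NRG1 to ABCA1 at 0.860, DOCK4 and TOR1AIP2, TGFA to MCCC1 and GPR37, both at 0.830, and to an unnamed transcript, EGFR to EIF1 at 0.913, NUFIP2 and ANO6, and ERBB2 to CYBC1 at 0.913, RNF20 and SLC68A1.

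The rest of the pathway was read from lists of genes grouped by role. Of the other ligands and the receptor ERBB4, NRG2 and NRG4, further neuregulins, were the 2 genes measured, and neither passed in any treated group. After SM30 they differed by -0.88 (adjusted p = 0.0801) and -0.81 (adjusted p = 0.117), both with an unadjusted p under 0.05 and both farther from 0 than any member gene on its brighter probe. Of the ligand release genes, the ADAM proteases and their partners, 1 of 9 measured genes was called after SM30 and 0 of 9 after AS30 at 3 h or at 22 h, where 8.78%, 4.59% and 4.99% of all probes were called. The called gene was TIMP3, which does not release ligands but inhibits the proteases that do. TIMP3 read 5.68, 5.89 and 5.88 after SM30 and was at least 3.19-fold above controls of which no array was well above background (adjusted p = 0.0182). After AS30 at 3 h it read 3.94, 6.10 and 5.87, and the fitted difference was 2.68 there and 2.37 after SM30. The AS30 value rests on control array A alone, at 2.62 and not well above background. Control arrays B and C had no value and no bound was obtained, so the 2 differences cannot be ranked.

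Adaptors and kinases below the receptors were called for 5 of 29 genes after SM30, 4 higher and 1 lower, for 2 of 29 after AS30 at 3 h and for 3 of 29 at 22 h, all of these higher, beside 8.78%, 4.59% and 4.99% of all probes. GAB2, a docking protein of receptor complexes, read 9.10, 9.21 and 9.34 in the SM30 controls and 10.34, 10.37 and 10.23 after SM30. It rose by 1.1 (adjusted p = 0.000145), and after AS30 at 3 h by 1.15 (adjusted p = 0.000559), without overlap in either set. STAT5A, a transcription factor that receptors and kinases phosphorylate, rose by 1.22 after SM30 (adjusted p = 0.00487) and was at least 1.59-fold higher at 22 h after AS30 (adjusted p = 0.0194), where its controls were near background. NCK1, an adaptor that binds phosphorylated receptors, rose by 0.65 after SM30 (adjusted p = 0.0123). PIK3R1, the regulatory subunit of PI3 kinase, fell by 0.75 (adjusted p = 0.0453). GRB7, another adaptor, rose by 0.57 after AS30 at 3 h (adjusted p = 0.0324), and the kinases SRC and MAPK3 rose by 0.65 and 0.52 at 22 h (adjusted p = 0.0387 and 0.0404). The medians of this list were 0.05, 0.13 and 0.10 in the 3 comparisons.

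Genes that restrain the receptors were called for 3 of 13 after SM30, all higher, and for 0 of 13 in either AS30 group, beside 8.78% of all probes after SM30 and 4.59% and 4.99% after AS30. CBL and CBLB, ubiquitin ligases that send active receptors to degradation, rose by 0.70 (adjusted p = 0.00760) and 0.92 (adjusted p = 0.0393). SH3KBP1, a partner of CBL in receptor uptake, read 11.60, 11.43 and 11.55 in the SM30 controls and 12.75, 12.69 and 12.66 after SM30, and rose by 1.17 (adjusted p = 0.00118). The median of the list was 0.14 after SM30, 0.14 after AS30 at 3 h and 0.08 at 22 h.

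Among genes induced by ERK signalling, 4 of 18 were called after SM30, 2 of 18 after AS30 at 3 h and 1 of 18 at 22 h, in mixed directions, beside 8.78%, 4.59% and 4.99% of all probes. JUN, a component of the AP-1 factor, read 12.82, 12.60 and 12.43 in the SM30 controls and 13.98, 13.90 and 14.01 after SM30, and rose by 1.35 (adjusted p = 0.00172). DUSP5, a phosphatase that inactivates ERK, rose by 1.19 after SM30 (adjusted p = 0.00779) and by 1.06 after AS30 at 3 h (adjusted p = 0.0259), and IER3 rose by 0.94 after SM30 (adjusted p = 0.0349). EGR1, an immediate-early transcription factor, fell by 1.58 after SM30 (adjusted p = 0.0285) and fell by 1.66 at 22 h after AS30 (adjusted p = 0.0332). Between the AS30 controls EGR1 went the other way from HBEGF, with 10.61, 10.21 and 10.45 at 3 h and 12.60, 12.08 and 13.04 at 22 h, and rose by 2.15 (adjusted p = 0.0199). The SM30 controls, also at 3 h, read 12.51, 12.49 and 12.73, within the range of the 22 h controls, so that EGR1 differed as much between control sets at the same time. CCND1, cyclin D1, fell by 0.62 after AS30 at 3 h (adjusted p = 0.0368). The list medians were 0.41, 0.25 and -0.01, beside -0.05, 0.01 and -0.01 for all probes. With the slide as a fixed block, 3 of the genes on these lists were called after SM30 and 0 after AS30 at either time, beside 1.17% of all probes after SM30 and 0.429% and 0.297% after AS30.

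**Figure D4:**
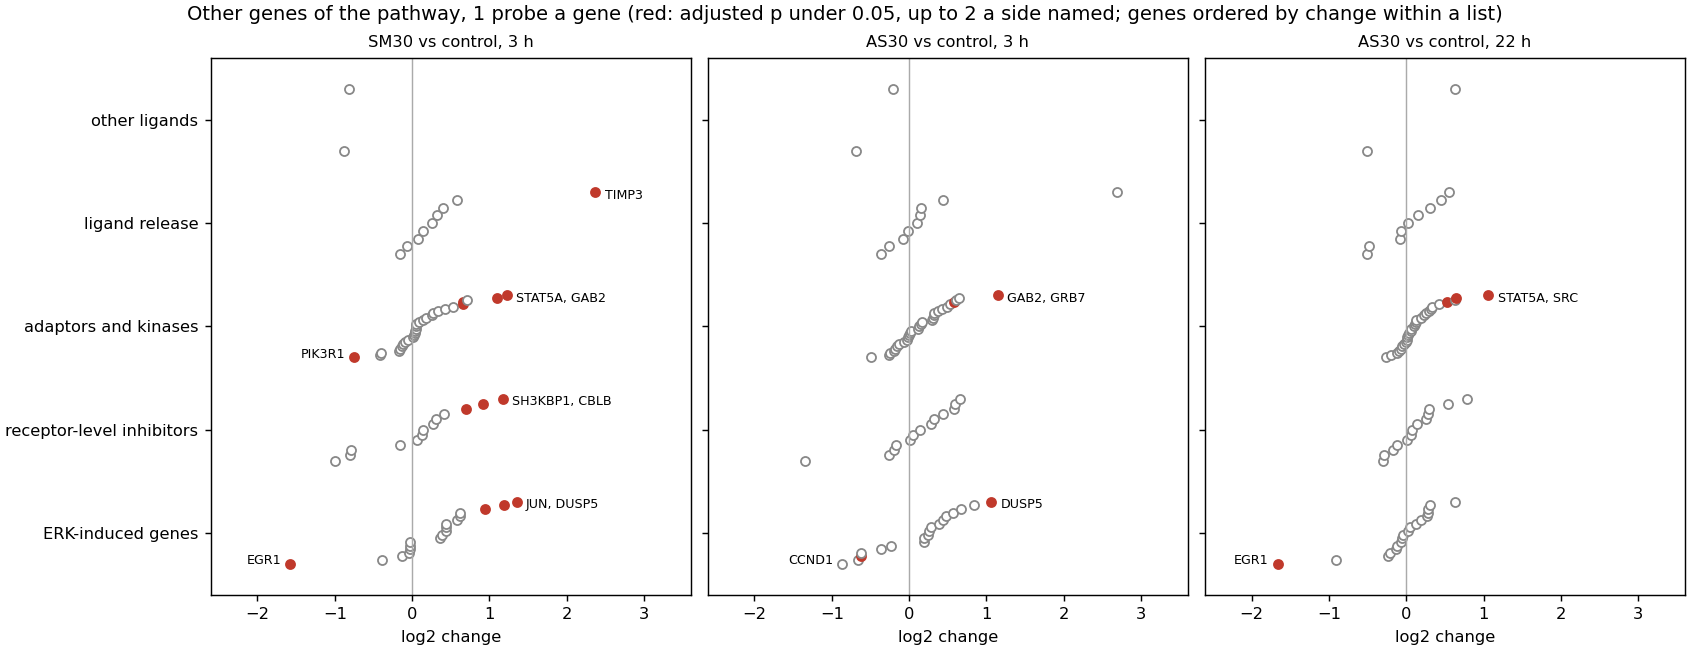
Log2 change of every measured gene (points) of the pathway lists (rows) in SM30 at 3 h, AS30 at 3 h and AS30 at 22 h (panels), each against its controls. Red points have an adjusted p under 0.05, and up to 2 of them in each direction are named for a list. TIMP3, JUN, STAT5A, DUSP5, SH3KBP1 and GAB2 lie above 1 after SM30, and EGR1 lies lowest.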

How the data were processed

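The 18 arrays were read from the scanner files, of which the authors deposited 1 per array as Agilent Feature Extraction 10.5.1.1 wrote it (array design 014850, 1 colour). The deposited spot intensity is linear, and the processed signal has been background-corrected by the software. An expression table of 41093 lines, also deposited, holds quantile-normalized intensity and served as an alternative, and columns not used numbered 0. Groups and letters came from the labels, the dose from the methods.

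The log2 processed signal was quantile-normalized over the arrays with limma 3.58.1 in R 4.3.3 (with version 1.17.8 of data.table and statmod 1.5.0). Spots not positive and significant were set to missing, outlier-flagged spots were left out, replicate spots were averaged, and probes with over 33% missing values were removed, leaving 28665 of 41000. The fit left out missing values, among them NRG1 probe A_23_P136493 on SM30 array B, an outlier. Limma's moderated test was fitted to 6 groups with 12 residual degrees of freedom and a probe passed at an adjusted p (Benjamini-Hochberg, all tested probes) under 0.05. A gene was counted by its brightest probe. The fit was tested on simulated data. The number of arrays limits the precision.

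A bound ("at least") takes, for each array of the dim group, whichever is higher of the probe's signal and the weakest signal flagged well above background, and divides the bright group's mean by the mean of these. Probe positions are those of the files, on hg18, and were not joined to GRCh38.

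Members and lists were chosen with earlier results of these data known. Named were all members, up to the 4 called genes of largest change per list and comparison, the 3 genes most correlated with a member, and members nearest the threshold. NCK1 was named in addition after its value was seen. Of the 3 correlated genes, those known only by a sequence identifier are not named. Some genes that these rules name are not reported here.

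Whether letters pair arrays was checked by correlating, between treated and control arrays of 1 letter, how far each lay from its group's mean. These correlations were 0.0878, -0.00402 and -0.0127 for SM30, 0.476, -0.0914 and 0.0789 for AS30 at 3 h, and 0.110, 0.104 and 0.190 at 22 h. Only at 22 h were all of them positive, and they were weak. The fit as reported paired no set, and same-letter pairing was used only as an alternative, the replicate block. Neither labels nor methods state what a letter shares.

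The alternatives were scaling to the 75th percentile, normexp (offset 50), other filters on dim spots, probes and outliers, the deposited table, the replicate block, slide as a fixed or random block, fits of the compared groups alone, the mean of a gene's probes, and leaving out each array. Promoter sequences came from RefSeq (GRCh38.p14), with an entry for 7 of the 8 members looked up.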

Additional observations from a re-analysis of the deposited data

How the results depend on the processing

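The count of member genes passing the test depended on the setting in 4 of the comparisons. After SM30 it was 0 as reported, 2 when only the compared groups were fitted (EREG and NRG1, with 18.2% of all probes in place of 8.78%), 1 with the mean of a gene's probes (EREG, with 7.82%), and 0 to 1 when single arrays were left out (1 without AS30 control array C at 3 h, with 11.4%). At 22 h after AS30 it was 1 as reported, with 4.99% of all probes. It was 0 with the replicate block (same-letter, paired ratios, 3.58% of all probes) and with slide as a fixed block (0.297%). It was also 0 with slide and scan as a fixed block (an alternative chosen after seeing the data, 0.220%) and with only the compared groups (0% of all probes). The mean of probes gave 0 (5.38%), where the dimmer BTC probe had no value on the 22 h controls. Leaving out single arrays gave 0 to 1, and 0 in fits with 1.00% to 1.85% of all probes. Between the AS30 controls it was 1 as reported, 2 with slide as a random block (HBEGF and EREG, with 3.31% of all probes), 0 with only the compared groups (0% of all probes), and 1 to 3 without single arrays (3 without control array C at 3 h, with 5.54% of all probes in place of 1.30%). Between the controls at 3 h it was 0, 1 with slide as a random block (BTC, with 34.0% of all probes in place of 26.8%), and 0 to 1 without single arrays (BTC without AS30 array B at 22 h, with 28.1%). The counts for AS30 at 3 h and for both differences of responses stayed at 0 under all alternatives run. No called value changed sign. The replicate block changed no other count of member genes. The cause of these changes was not tested.

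Signal over background limits BTC, TGFA and ERBB3, and the random block had a consensus correlation of -0.0837.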
